A study of Homo sapiens with 6 samples.

Results

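Described here are 42 genes that encode inflammatory cytokines, the subunits and inhibitors of the transcription factor NF-kB, and products of genes that NF-kB is known to act on. They were taken from a list of gene symbols, and their transcript rows were summed per gene. The rule itself used no measured value, but the genes were chosen with earlier results of these data known. Shares of these genes set against all genes are therefore not blind to the data. All 42 were found, in 135 transcript rows, among 28452 genes in the table. Of the 42, 40 had enough counts to be among the 17115 genes tested. The granulocyte growth factors CSF2 and CSF3 did not pass that filter: CSF2 had counts of 4 and 3 in 1 control and 1 shCBX8-2 library, and CSF3 had a count of 11 in 1 control library, with 0 elsewhere.

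RNA was sequenced from A549, a cell line established from a human lung adenocarcinoma, after lentiviral delivery of a short hairpin RNA for stable expression. The 3 groups had 2 libraries each: cells with a control hairpin, and cells of the groups titled shCBX8-1 and shCBX8-2, both directed at CBX8, which is one of the chromobox proteins of Polycomb repressive complex 1. All groups were grown in medium with serum, and no cytokine or other stimulus is named in the labels. The first number of the shCBX8 titles is read here as the name of the group. Neither this nor the use of clones, a selection step or separate cultures for the 2 libraries is stated. The p-values therefore set differences between groups against the spread of these libraries only, and that spread may be technical.

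NF-kB is a family of dimeric transcription factors that inhibitor proteins of the IkB family hold in the cytoplasm. In the canonical pathway, receptors for TNF, IL-1 and microbial products act through adaptors and an IkB kinase, IkB is degraded, and RELA-NFKB1 dimers enter the nucleus. In the non-canonical pathway, the kinase MAP3K14 leads to processing of the NFKB2 precursor, which then acts with RELB. Targets include chemokines, cytokines, adhesion molecules and the pathway's own inhibitors, which give negative feedback. Lung epithelial cells secrete CXC chemokines of this group, which attract neutrophils.

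The promoters below belong to the 6 genes with the smallest p for knockdown against control among those with a RefSeq entry. They show where letters resembling an NF-kB site (kB site) lie. Each run is 250 bases before the annotated start, 5′ to 3′ on the strand of the gene, from RefSeq on GRCh38.p14. Capitals mark matches to a kB motif.
SDC4, chr20:45348425-45348674, minus strand: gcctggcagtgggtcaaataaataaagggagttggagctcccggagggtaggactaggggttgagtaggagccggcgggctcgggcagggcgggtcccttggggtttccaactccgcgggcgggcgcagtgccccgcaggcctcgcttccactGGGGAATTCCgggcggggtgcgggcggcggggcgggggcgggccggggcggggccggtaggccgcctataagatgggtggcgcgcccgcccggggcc
MAP3K8, chr10:30433771-30434020, plus strand: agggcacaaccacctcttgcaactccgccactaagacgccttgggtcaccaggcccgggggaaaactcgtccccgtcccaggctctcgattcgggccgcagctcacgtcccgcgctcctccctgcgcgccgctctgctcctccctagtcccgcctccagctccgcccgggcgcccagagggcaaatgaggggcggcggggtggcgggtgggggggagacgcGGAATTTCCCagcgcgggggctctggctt
CXCL1, chr4:73869143-73869392, plus strand: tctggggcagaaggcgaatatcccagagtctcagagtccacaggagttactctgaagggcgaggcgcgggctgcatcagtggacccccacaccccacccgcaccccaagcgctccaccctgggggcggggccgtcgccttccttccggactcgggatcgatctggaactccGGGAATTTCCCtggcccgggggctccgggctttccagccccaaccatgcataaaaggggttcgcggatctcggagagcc
EFNA1, chr1:155127626-155127875, plus strand: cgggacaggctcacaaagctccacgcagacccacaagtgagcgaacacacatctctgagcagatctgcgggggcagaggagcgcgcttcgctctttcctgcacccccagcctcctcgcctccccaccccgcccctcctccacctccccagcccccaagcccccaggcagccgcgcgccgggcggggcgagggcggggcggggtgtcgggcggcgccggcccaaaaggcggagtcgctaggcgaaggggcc
CXCL2, chr4:74099196-74099445, minus strand: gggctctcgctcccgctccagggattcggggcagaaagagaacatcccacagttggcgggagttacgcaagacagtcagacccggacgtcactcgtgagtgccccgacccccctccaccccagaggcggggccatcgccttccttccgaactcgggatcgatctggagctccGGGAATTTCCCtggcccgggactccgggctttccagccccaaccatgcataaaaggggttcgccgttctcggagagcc
CXCL8, chr4:73740319-73740568, plus strand: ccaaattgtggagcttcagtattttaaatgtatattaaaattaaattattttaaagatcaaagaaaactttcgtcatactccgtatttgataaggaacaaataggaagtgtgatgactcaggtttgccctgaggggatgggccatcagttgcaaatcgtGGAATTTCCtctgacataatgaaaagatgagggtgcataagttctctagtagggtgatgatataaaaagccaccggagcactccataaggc

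The search used 2 kB motifs on both strands, the kB consensus and the core GGANTTTCC, which overlap at most of the matches found in these genes. Of the 42 genes, 33 had a promoter entry, and 16 of them (48.5%) held at least 1 of the 2 motifs, against 5.79% of all 27305 promoters of this length. The core alone was in 13 of 33 (39.4%), against 1.47% of all promoters. Every one of the 5 CXC chemokine genes held GGAATTTCC, which began 91 bases before the start in CXCL8, 90 in CXCL5, 78 in CXCL1 and CXCL3, and 77 in CXCL2. CXCL8 also held TGANTCA, the AP-1 motif, 137 bases before its start. EFNA1 had neither kB motif in this window. For comparison, AP-1 was found in 3 of 33 promoters (9.09%) against 6.6% of all, and TATAAA, searched on the sense strand, in 8 of 33 (24.2%) against 7.17%. The 42 genes were listed as genes of NF-kB and its known targets, so a higher share of kB motifs goes with that choice. It is not a result of these data. CXCL1, CXCL2 and CXCL3 are close paralogues, so their matches are not independent. These are matches of letters, and no binding was measured.

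Total estimated counts were 64197784 to 67169537 per library. CBX8, the targeted gene, had 24.6 and 26.3 CPM in the controls, 7.79 and 7.70 in shCBX8-1, then 17.7 and 13.8 in shCBX8-2, where CPM is the count relative to a TMM-adjusted library size. It was lower than in both controls in all 4 knockdown libraries, with a log2 fold change of -1.72 ± 0.16 (SE) in shCBX8-1 and -0.69 ± 0.15 in shCBX8-2, so less CBX8 RNA remained in shCBX8-1. The shCBX8-2 libraries differed more from each other than those of the other groups: the median difference was 0.207 log2 over the 40 genes described here, against 0.123 in control and 0.0935 in shCBX8-1. Replicate 1 of shCBX8-2 lay more than 0.5 log2 below replicate 2 in CXCL8, CXCL5, PTGS2, BIRC3, TNFAIP8 and NFKBIZ, and above it in CD83. Such a gap occurred in 7 of 40 genes there, near the 16.6% of all genes tested. As a check of the labelled cell type, 8 of 8 epithelial markers passed the filter, with summed levels of 25420 and 24540 CPM in the controls, 22080 and 22060 in shCBX8-1, then 31580 and 27950 in shCBX8-2. Of the 8, 5 rose in shCBX8-2 against control (6.03% of all genes rose). In shCBX8-1, 1 rose and 1 fell (1.34% and 1.13% of all genes). Over both groups 2 rose and 1 fell (3.31% and 3.48%). Between the groups 4 were higher and 1 lower in shCBX8-2 (4.05% and 5.77%). CDH1 had 19.3 and 21.8 CPM in the controls and 11.3 and 10.4 in shCBX8-1, whereas KRT19 had 0.407 and 0.359, then 4.11 and 3.97. The part of these markers in the results was not tested. Leukocyte markers summed to 2.97 to 6.59 CPM, with CD3E, CD3D and MS4A1 at 0 in all 6 libraries and PTPRC at 12 counts in 1 control library only. Fibroblast markers summed to 12.5 and 15.0 CPM in the controls, 8.94 and 10.0 in shCBX8-1, then 6.24 and 5.61 in shCBX8-2, with DCN at 0 throughout, and endothelial markers summed to 1.88 to 5.72 CPM, with KDR and ERG at 0. Of the 8 fibroblast markers 6 could be tested, and all 6 were lower in knockdown against control, 1 of them past the threshold, the direction of most genes below; this was not tested either.

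In the mean of both knockdown groups against control, 12 of the 40 genes fell and 1 rose (edgeR, adjusted p under 0.05, which is meant below by passing the test). Those that fell were the chemokines CXCL1, CXCL2, CXCL3, CXCL8 and CCL2, the NF-kB cofactor BCL3, the kinase MAP3K8, and the effectors ICAM1, EFNA1, IER3, SOD2 and PTGS2, and the gene that rose was SDC4. CCL2 passed here as an average of unlike groups, since both its shCBX8-1 libraries lay above both controls. Over all 17115 genes, 3.48% fell and 3.31% rose. The median log2 fold change of the 40 genes was -0.43, against -0.04 over all genes. All 4 knockdown libraries lay below both controls in 16 of the 40 genes and above both in 1, whereas over all genes these shares were 15.5% and 13.2%, and the groups overlapped in the other 23. In bulk RNA, fewer cells that express a gene and less RNA per cell cannot be told apart. The count of 13 rests on every control and shCBX8-1 library. When 1 of these was left out, a group had 1 library and the calls were lost, as were nearly all calls over all genes. Leaving out a shCBX8-2 library did not lower the count. In the edgeR fit of all 6 libraries, 1 of the 40 genes had an unadjusted p under 0.05 as higher and 17 as lower. Over all 17115 genes, 1848 and 2201 did.

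**Figure D1:**
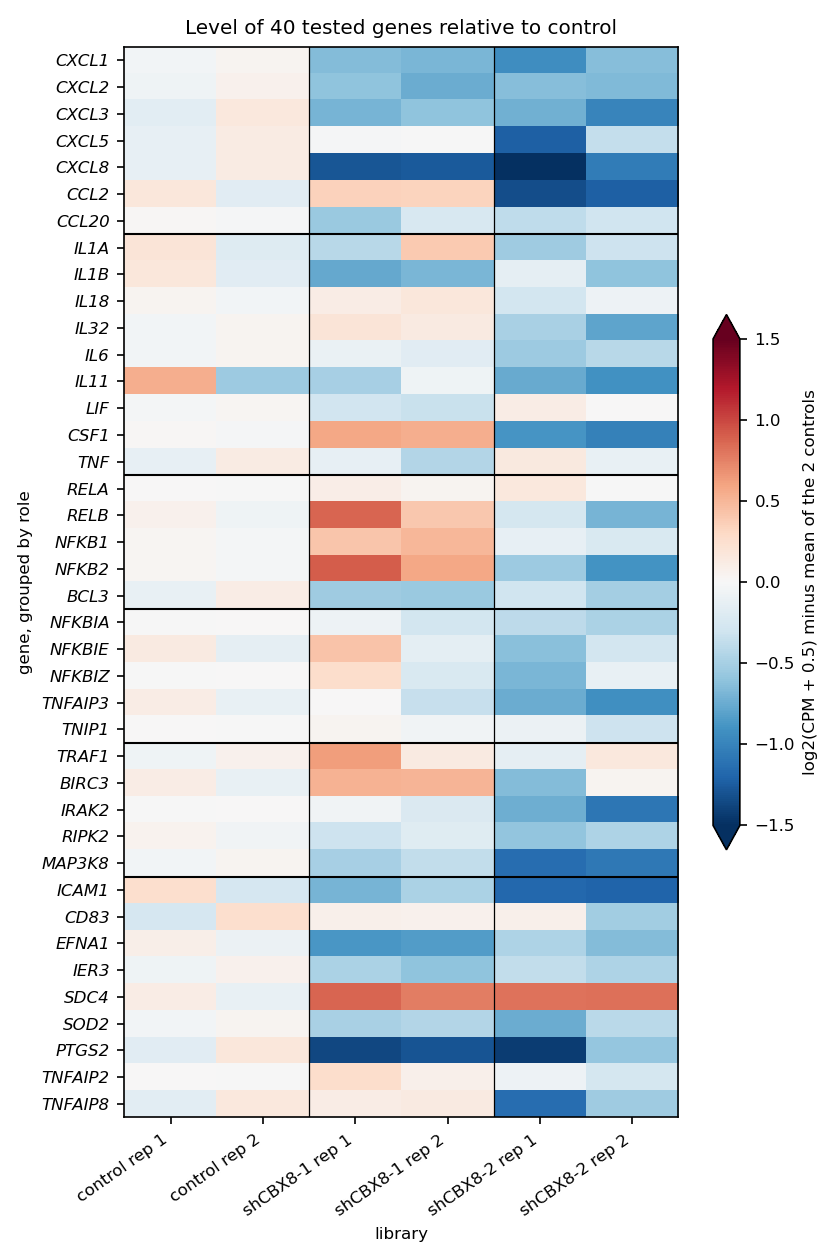
Level of each of the 40 tested genes (rows, grouped by role) in the 6 libraries (columns), as log2(CPM + 0.5) minus the mean of the 2 controls; red is higher and blue lower than control. The rows of CXCL1, CXCL2, CXCL3 and CXCL8 are blue in all 4 knockdown libraries, SDC4 is red in all 4, and CSF1 and NFKB2 are red in shCBX8-1 and blue in shCBX8-2.

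Each knockdown group was also set against the same 2 control libraries. In shCBX8-1, 3 of 40 genes fell (CXCL1, EFNA1, IER3) and 2 rose (CSF1, SDC4), where 1.13% of all genes fell and 1.34% rose. In shCBX8-2, 16 fell and 1 rose, where 6.64% of all genes fell and 6.03% rose. The median log2 fold change was -0.15 in shCBX8-1, against -0.01 over all genes, and -0.57 in shCBX8-2, against -0.04. CXCL1, EFNA1 and IER3 passed as lower in both groups, SDC4 passed as higher in both, and CSF1 passed as higher in shCBX8-1 and lower in shCBX8-2. Between the groups, 9 of 40 genes were lower and 1 was higher in shCBX8-2 than in shCBX8-1, where 5.77% of all genes were lower and 4.05% higher. The calls for shCBX8-1 were lost when a control or a shCBX8-1 library was left out, where a group had 1 library. In the edgeR fit of all 6 libraries, 7 of the 40 genes had an unadjusted p under 0.05 as higher and 12 as lower in shCBX8-1. Over all 17115 genes, 1467 and 1484 did. For shCBX8-2, fewer genes were called when a control or a shCBX8-1 library was left out, both among these 40 and over all genes.

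**Figure D2:**
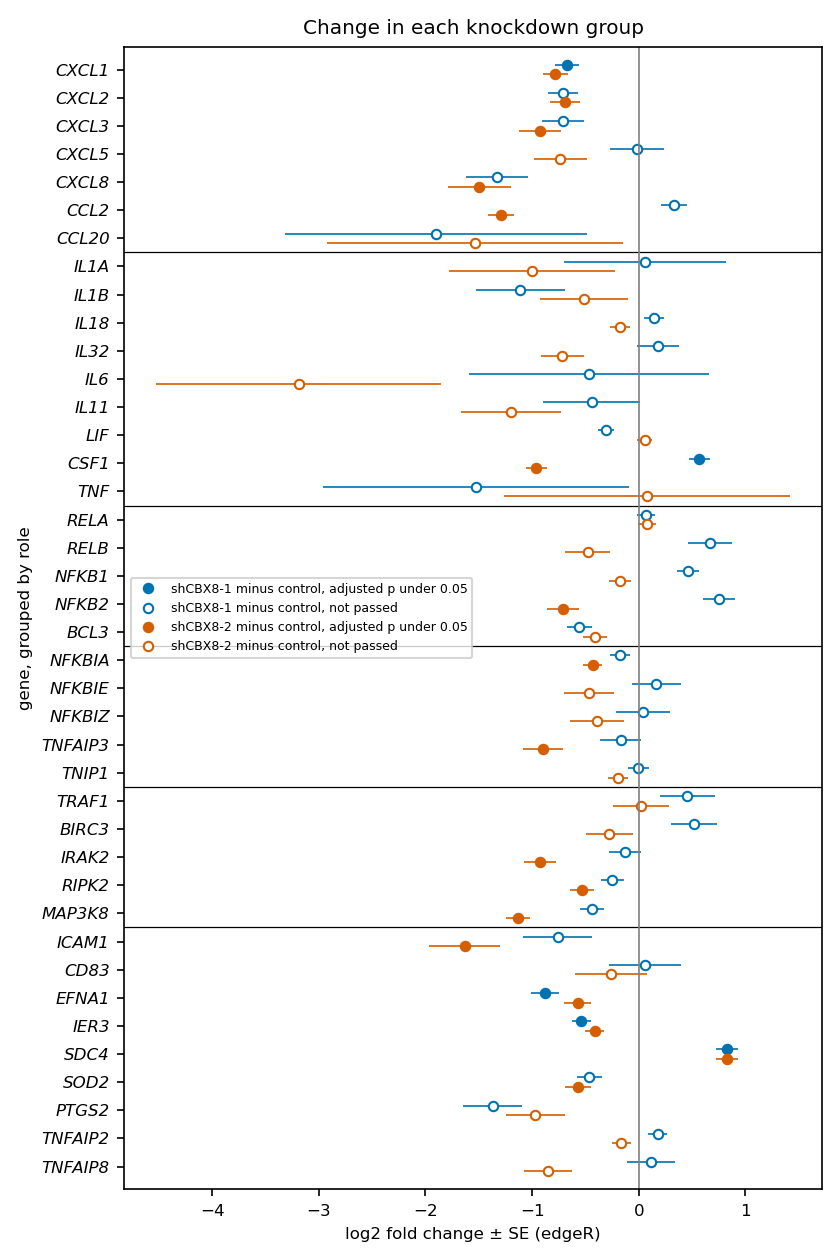
Log2 fold change against control with its SE (horizontal axis) for each of the 40 tested genes (vertical axis, grouped by role), blue for shCBX8-1 and orange for shCBX8-2; filled points passed the test in edgeR. CXCL1, EFNA1, IER3 and SDC4 are filled on the same side of 0 in both colours, while CSF1 is filled on opposite sides.

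Of the 7 chemokine ligands, small secreted proteins that attract leukocytes, 5 fell in knockdown against control (CXCL1, CXCL2, CXCL3, CXCL8, CCL2) and CXCL5 and CCL20 did not pass. For CCL2 the fall was in shCBX8-2 only, with both shCBX8-1 libraries above both controls. Over all genes, 3.48% fell. The median log2 fold change of the 7 ligands was -0.73, against -0.04 over all genes. CXCL8, the neutrophil attractant interleukin 8, had 16.8 and 19.9 CPM in the controls, 7.19 and 7.37 in shCBX8-1, then 4.43 and 8.58 in shCBX8-2. Every knockdown library lay below both controls, and replicate 1 of shCBX8-2 was -0.88 log2 from replicate 2. Its log2 fold change was -1.41 ± 0.24 (adjusted p = 0.0225) over both groups, -1.33 ± 0.29 (adjusted p = 0.0717) in shCBX8-1 and -1.49 ± 0.29 (adjusted p = 0.0221) in shCBX8-2. CXCL1, which like CXCL8 attracts neutrophils through the receptor CXCR2, had 77.8 and 82.4 CPM in the controls, 50.7 and 49.6 in shCBX8-1, then 41.6 and 51.4 in shCBX8-2. The 4 knockdown libraries were close together and all below control, and CXCL1 fell by 0.67 ± 0.12 on the log2 scale in shCBX8-1 (adjusted p = 0.0387) and then, in shCBX8-2, by 0.78 ± 0.12 (adjusted p = 0.00887). CXCL2, a close paralogue of CXCL1, had 11.0 and 12.0 CPM in the controls, 7.34 and 6.66 in shCBX8-1, then 7.16 and 7.06 in shCBX8-2. Its knockdown groups did not overlap with control, and it changed by -0.70 ± 0.12 over both (adjusted p = 0.0224), while shCBX8-1 alone missed the threshold (-0.71, adjusted p = 0.0556). CXCL3, the third member of this paralogue group, had 7.33 and 9.19 CPM in the controls, 4.86 and 5.22 in shCBX8-1, then 4.79 and 3.88 in shCBX8-2. All 4 knockdown libraries were again below both controls, with a log2 fold change of -0.82 ± 0.16 (adjusted p = 0.034). Alone, shCBX8-2 passed (adjusted p = 0.0271) and shCBX8-1 did not.

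Reads may be split between CXCL1, CXCL2 and CXCL3, since 5.26 to 9.24% of the 50-base windows of each GENCODE v29 transcript also occur in the other two. Summed to 1 entry, the 3 genes changed by -0.73 ± 0.08 over both groups (adjusted p = 0.00843), by -0.68 ± 0.10 in shCBX8-1 (adjusted p = 0.0264) and by -0.78 ± 0.10 in shCBX8-2 (adjusted p = 0.00599). The sum differed between the knockdown groups by -0.10 ± 0.10 (adjusted p = 0.568). CXCL5, another neutrophil attractant, had 258 and 309 CPM in the controls, 279 and 281 in shCBX8-1, then 121 and 221 in shCBX8-2. shCBX8-1 lay within the range of control while both shCBX8-2 libraries lay below it, with a log2 fold change of -0.73 ± 0.25 that did not pass (adjusted p = 0.107). These 5 genes lie within 358.6 kb on chromosome 4 (chr4:73740569-74099195, GRCh38.p14), together with 4 other coding genes. Of those, CXCL6, PF4V1 and PF4 had 0 counts in all libraries. PPBP, a platelet chemokine, had 179 counts over the 6 libraries and a log2 fold change of 0.27 ± 0.50 (adjusted p = 0.805).

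CCL2, which attracts monocytes and lies outside this interval, had 161 and 126 CPM in the controls, 181 and 180.3 in shCBX8-1, then 56.6 and 60.5 in shCBX8-2. Both shCBX8-1 libraries lay above both controls and both shCBX8-2 libraries far below them. The fall in shCBX8-2 was -1.29 ± 0.12 on the log2 scale (adjusted p = 0.00299), shCBX8-1 changed by 0.33 ± 0.12 without passing (adjusted p = 0.224), and the groups differed by -1.63 ± 0.12 (adjusted p = 0.00132). The fall of -0.48 ± 0.10 over both groups (adjusted p = 0.0405) averages these 2 changes. It was -0.29 without control replicate 1 (adjusted p = 0.26) and -0.26 with the 4 knockdown libraries as 1 group (adjusted p = 0.885). CCL20, a ligand of CCR6, had counts of 16 and 15 in the controls, 0 and 8 in shCBX8-1, then 4 and 6 in shCBX8-2, and did not pass.

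**Figure D3:**
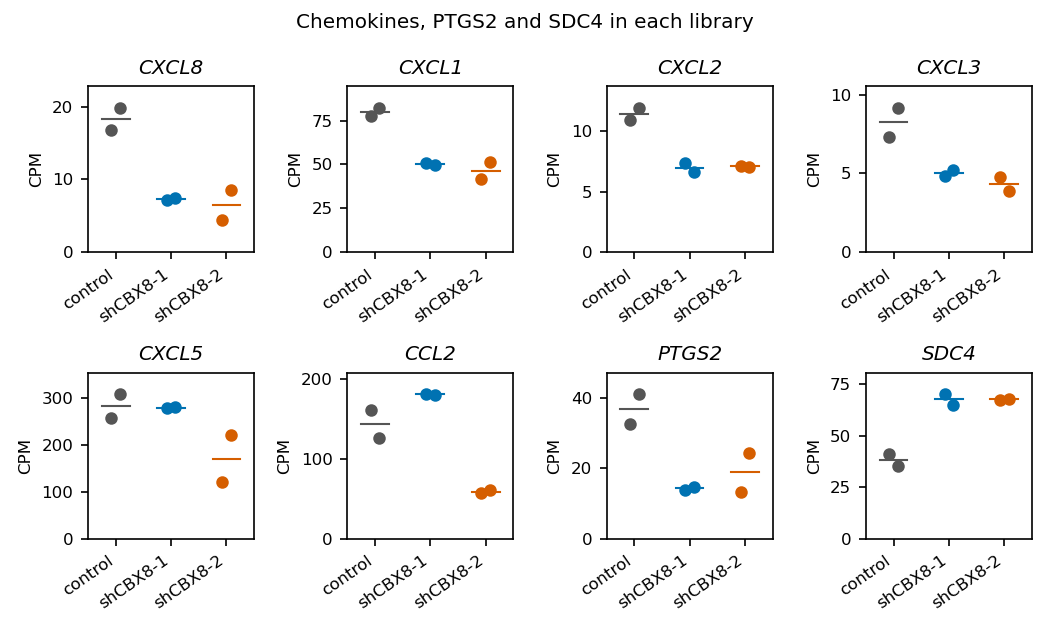
CPM (vertical axis, from 0) of 6 chemokines, PTGS2 and SDC4 in each library (points), with the mean of each group as a bar, for control, shCBX8-1 and shCBX8-2. CXCL8, CXCL1, CXCL2, CXCL3 and PTGS2 lie below control in all 4 knockdown libraries, SDC4 lies above it in all 4, and CCL2 lies below it in shCBX8-2 only.

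Among 9 tested interleukins, growth factors and TNF, edgeR called 0 in knockdown against control, where 1 had an unadjusted p under 0.05 and DESeq2 also called 0. CSF1 passed in each group alone, with opposite signs, and CSF1, IL32 and LIF differed between the groups. In edgeR with the replicate number as a block, the rise of CSF1 in shCBX8-1 did not pass (adjusted p = 0.0693). Over all genes, 5.77% were lower and 4.05% higher in shCBX8-2 than in shCBX8-1. CSF1, the macrophage colony stimulating factor, had 41.5 and 40.7 CPM in the controls, 61.9 and 60.0 in shCBX8-1, then 22.1 and 20.1 in shCBX8-2. The 3 groups did not overlap, and shCBX8-1 was the highest and shCBX8-2 the lowest. In shCBX8-1 it rose by 0.57 ± 0.09 on the log2 scale (adjusted p = 0.0359), in shCBX8-2 it fell by 0.96 ± 0.10 (adjusted p = 0.00347), a difference between groups of -1.53 ± 0.10 (adjusted p = 0.000899). LIF, an interleukin 6 family cytokine, had 289 and 301 CPM in the controls, 242 and 235 in shCBX8-1, then 318 and 295 in shCBX8-2. Its shCBX8-1 libraries lay below all the others, and shCBX8-2 was higher than shCBX8-1 by 0.36 ± 0.07 (adjusted p = 0.0265). IL32, a cytokine of human epithelial and lymphoid cells, had 4.61 and 4.90 CPM in the controls, 5.50 and 5.28 in shCBX8-1, then 3.26 and 2.53 in shCBX8-2. It was lower in shCBX8-2 than in shCBX8-1 by a log2 difference of -0.90 ± 0.20 (adjusted p = 0.0389), and it did not pass against control in either group.

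The other 6 of these cytokines did not pass in any comparison. IL18, an IL-1 family cytokine made as an inactive precursor, had 77.8 to 106 CPM over the 6 libraries, with shCBX8-1 above and shCBX8-2 below control. IL11 had 1.08 to 3.85 CPM, and the 2 controls themselves stood at 3.85 and 1.54. The IL-1 receptor ligands were low too: IL1B had 0.629 to 1.66 CPM and IL1A 0.205 to 0.834 CPM. IL6, the acute phase cytokine, had counts of 14 and 17 in the controls, 12 and 10 in shCBX8-1, then 0 and 3 in shCBX8-2, so the level was low everywhere and lowest in shCBX8-2. The count of TNF is uncertain: the table repeats its accession in 8 rows with the same values, each row held 0 to 2 counts per library, and only their sum passed the filter.

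Among the 5 genes of NF-kB subunits and BCL3, BCL3 fell in knockdown against control and the other 4 did not pass. NFKB2, NFKB1 and RELB were each lower in shCBX8-2 than in shCBX8-1, whereas RELA was not called in any comparison. Over all genes, 3.48% fell in knockdown against control and 5.77% were lower in shCBX8-2 than in shCBX8-1. NFKB2, whose product is processed to the p52 subunit, had 78.6 and 75.9 CPM in the controls, 145 and 116 in shCBX8-1, then 53.0 and 41.3 in shCBX8-2. Both shCBX8-1 libraries were above and both shCBX8-2 libraries below control. The log2 fold change of 0.76 ± 0.15 in shCBX8-1 did not pass (adjusted p = 0.0572), the fall of -0.71 ± 0.15 in shCBX8-2 passed (adjusted p = 0.0276), and the groups differed by -1.47 ± 0.15 (adjusted p = 0.00377). RELB, the partner of p52, had 22.1 and 20.3 CPM in the controls, 39.2 and 28.2 in shCBX8-1, then 17.5 and 12.9 in shCBX8-2. The order was the same, with a difference between groups of -1.15 ± 0.21 (adjusted p = 0.0215), and neither group passed against control. NFKB1, which encodes p105 and p50, had 28.4 and 27.5 CPM in the controls, 37.4 and 39.6 in shCBX8-1, then 25.7 and 23.8 in shCBX8-2. shCBX8-2 lay below the other groups and shCBX8-1 above them, and the difference was -0.64 ± 0.10 (adjusted p = 0.0149). RELA, the main activating subunit of the canonical pathway, had 116 and 116 CPM in the controls, 124 and 119 in shCBX8-1, then 129 and 115 in shCBX8-2. Its groups differed from control by 0.07 ± 0.08 and 0.08 ± 0.08 on the log2 scale, close to the SE. BCL3, an IkB-like nuclear cofactor of p50 and p52, had 51.1 and 59.3 CPM in the controls, 37.8 and 37.2 in shCBX8-1, then 44.5 and 38.6 in shCBX8-2. All 4 knockdown libraries were below both controls, with a log2 fold change of -0.48 ± 0.10 (adjusted p = 0.0362), and neither group passed alone. For shCBX8-1 alone, edgeR called 0 of these 5 genes, with 4 at an unadjusted p under 0.05, whereas DESeq2 called 3 as higher and 1 as lower. DESeq2 called 1459 of all 17115 genes there.

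**Figure D4:**
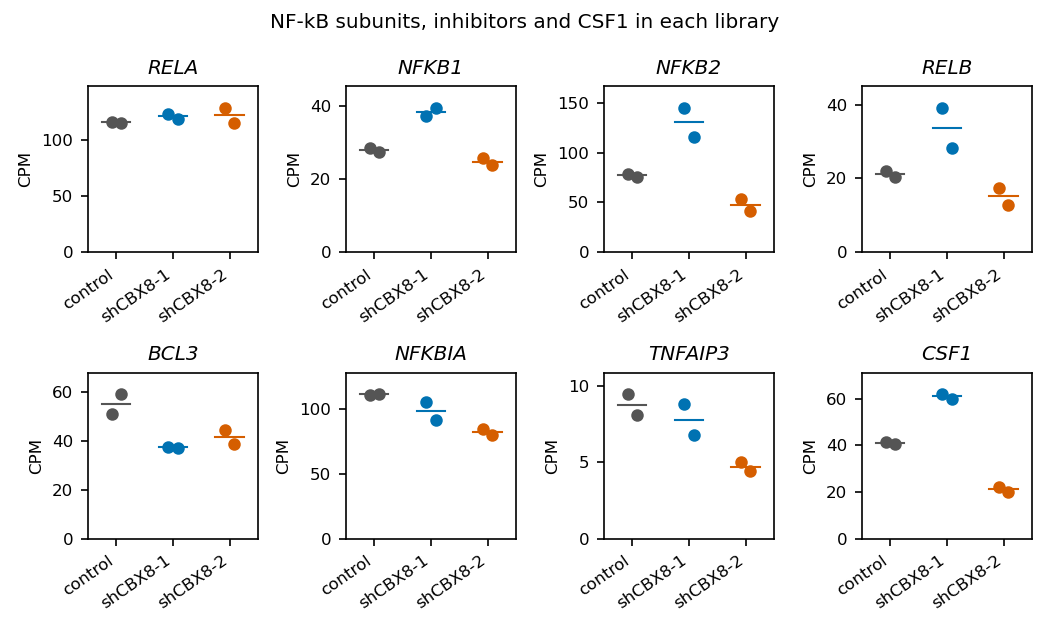
CPM (vertical axis, from 0) of 4 NF-kB subunit genes, BCL3, the inhibitors NFKBIA and TNFAIP3, and CSF1 in each library (points), with group means as bars. NFKB1, NFKB2, RELB and CSF1 are highest in shCBX8-1 and lowest in shCBX8-2, while RELA stays between 115 and 129 CPM.

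Of the 5 inhibitors and feedback genes, NFKBIA and TNFAIP3 fell in shCBX8-2, and edgeR called 0 in knockdown against control, where 2 had an unadjusted p under 0.05 and DESeq2 called 1. Over all genes, 6.64% fell in shCBX8-2 in edgeR. NFKBIA encodes IkB-alpha, which retains NF-kB in the cytoplasm, and had 111 and 112 CPM in the controls, 106 and 91.6 in shCBX8-1, then 85.0 and 80.0 in shCBX8-2. All 4 knockdown libraries were below both controls, with changes of -0.18 ± 0.09 in shCBX8-1 (adjusted p = 0.398) and -0.43 ± 0.09 in shCBX8-2 (adjusted p = 0.0279). TNFAIP3 encodes A20, an enzyme that edits ubiquitin chains to end signalling, and had 9.45 and 8.08 CPM in the controls, 8.79 and 6.79 in shCBX8-1, then 5.01 and 4.40 in shCBX8-2. shCBX8-2 lay below all other libraries, and its change was -0.90 ± 0.19 (adjusted p = 0.0277). TNIP1, a binding partner of A20, had 153 and 150.3 CPM in the controls, 156 and 146 in shCBX8-1, then 143 and 122 in shCBX8-2, and its change of -0.20 ± 0.09 in shCBX8-2 did not pass (adjusted p = 0.222). NFKBIE, the IkB-epsilon gene, had 9.69 to 20.7 CPM, and NFKBIZ, an inducible nuclear IkB protein, had 5.28 to 10.6 CPM. Neither passed in any comparison.

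Among the 5 adaptors and kinases, MAP3K8 fell in knockdown against control, and IRAK2, RIPK2 and MAP3K8 fell in shCBX8-2. Over all genes, 3.48% fell in knockdown against control and 6.64% in shCBX8-2. MAP3K8, also called TPL2, links IkB kinase to the ERK pathway and had 34.2 and 36.2 CPM in the controls, 24.8 and 27.2 in shCBX8-1, then 15.7 and 16.5 in shCBX8-2. The 3 groups did not overlap, in the order control, shCBX8-1, shCBX8-2. The log2 fold change was -0.78 ± 0.09 over both groups (adjusted p = 0.00947), and the groups differed by -0.69 ± 0.11 (adjusted p = 0.0144). IRAK2, a kinase-like adaptor of IL-1 and Toll-like receptors, had 24.3 and 24.4 CPM in the controls, 23.6 and 20.9 in shCBX8-1, then 14.4 and 11.2 in shCBX8-2. The log2 fold change was -0.93 ± 0.15 in shCBX8-2 (adjusted p = 0.0127) and -0.13 ± 0.15 in shCBX8-1, which did not pass, and the groups differed by -0.79 ± 0.15 (adjusted p = 0.0257). RIPK2, the kinase of NOD receptor signalling, had 41.8 and 38.9 CPM in the controls, 32.4 and 35.6 in shCBX8-1, then 26.7 and 29.1 in shCBX8-2. All 4 knockdown libraries were below control, and shCBX8-2 passed, with -0.53 ± 0.11 (adjusted p = 0.0247). TRAF1, an adaptor of TNF receptors, had 2.79 to 5.08 CPM, and BIRC3, a ubiquitin ligase of the same receptor complexes, had 18.0 to 40.9 CPM. Neither passed, and BIRC3 was higher than control in both shCBX8-1 libraries.

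Among 9 effectors, 5 fell and 1 rose in knockdown against control, where 3.48% of all genes fell and 3.31% rose. Their median was -0.48 log2. PTGS2, the inducible cyclooxygenase of prostaglandin synthesis, had 32.6 and 41.1 CPM in the controls, 13.9 and 14.6 in shCBX8-1, then 13.3 and 24.3 in shCBX8-2. It was below control in all 4 knockdown libraries, by 1.17 ± 0.23 on the log2 scale (adjusted p = 0.031), and the 2 shCBX8-2 libraries differed widely. Neither group passed alone. ICAM1, an adhesion receptor for leukocyte integrins, had 3.15 and 2.06 CPM in the controls, 1.38 and 1.70 in shCBX8-1, then 0.851 and 0.827 in shCBX8-2. Its level was low, with counts of 52 to 209 per library. It fell by 1.20 ± 0.27 over both groups (adjusted p = 0.0487), and shCBX8-2 was the lowest group. Alone, shCBX8-2 passed (adjusted p = 0.0247) and shCBX8-1 did not. EFNA1, a ligand of Eph receptors first found as a TNF-induced gene, had 27.5 and 24.3 CPM in the controls, 13.9 and 14.3 in shCBX8-1, then 18.6 and 16.3 in shCBX8-2. It fell in both groups, by 0.88 ± 0.13 in shCBX8-1 (adjusted p = 0.0273) and by 0.57 ± 0.13 in shCBX8-2 (adjusted p = 0.0331). SOD2, the mitochondrial superoxide dismutase, had 113 and 119 CPM in the controls, 82.9 and 85.5 in shCBX8-1, then 68.8 and 87.4 in shCBX8-2. All knockdown libraries lay below control, with a log2 fold change of -0.52 ± 0.10 (adjusted p = 0.0318). Alone, shCBX8-2 passed (adjusted p = 0.0264) and shCBX8-1 did not. IER3, an early response gene linked to cell survival, had 189 and 209 CPM in the controls, 143 and 131 in shCBX8-1, then 154 and 145 in shCBX8-2. It fell by 0.54 ± 0.09 in shCBX8-1 (adjusted p = 0.0336) and by 0.41 ± 0.09 in shCBX8-2 (adjusted p = 0.0266). Repeats of its accession held 83.0% of its counts, and without repeated accessions neither group passed alone (adjusted p = 0.0613 and 0.0501).

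SDC4, a heparan sulphate proteoglycan of cell-matrix contacts, was the 1 gene of the 42 that rose over both groups. It had 41.2 and 35.1 CPM in the controls, 70.1 and 65.1 in shCBX8-1, then 67.4 and 67.8 in shCBX8-2. The 4 knockdown libraries lay close together and well above control. Its log2 fold change was 0.82 ± 0.10 in shCBX8-1 (adjusted p = 0.0191) and 0.82 ± 0.10 in shCBX8-2 (adjusted p = 0.00582). It was also the single one of the 42 called when the 4 knockdown libraries were fitted as 1 group. TNFAIP8, an inhibitor of apoptosis induced by TNF, had 14.9 and 18.8 CPM in the controls, 18.2 and 18.4 in shCBX8-1, then 7.31 and 11.4 in shCBX8-2. Both shCBX8-2 libraries lay below the rest, with a difference from shCBX8-1 of -0.97 ± 0.23 (adjusted p = 0.0445). TNFAIP2, a membrane-associated protein induced by TNF, had 866 and 862 CPM in the controls, 1041 and 913 in shCBX8-1, then 821 and 722 in shCBX8-2, and its changes of 0.18 ± 0.09 and -0.16 ± 0.09 did not pass. CD83, an immunoglobulin-like surface protein, had 1.57 to 3.03 CPM with overlapping groups.

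In all, 24 genes passed in at least 1 of the 4 comparisons, and they gave 45 called log2 fold changes. The share of all genes that passed in at least 1 comparison was not computed, so 24 has no background to be set against. Taken singly, knockdown against control called 1162 of the 17115 genes, shCBX8-1 423, shCBX8-2 2169 and the comparison between the groups 1681. The 3 comparisons with control share the same 2 control libraries. Of the 45, the calls for CCL2 and CSF1 in shCBX8-2 and between the groups, and for NFKB2 between the groups, held in all 12 alternative fits tried for each. No call changed sign in these fits. Without the filter on low counts, CCL2, ICAM1, SOD2 and PTGS2 in knockdown against control no longer passed (adjusted p = 0.0633, 0.0604, 0.0621 and 0.0594), nor did CXCL1 in shCBX8-1 (adjusted p = 0.0721) or TNFAIP8 between the groups (adjusted p = 0.0745). Without repeated accessions the same held for CCL2 and ICAM1 (adjusted p = 0.0502 for each), CXCL1 in shCBX8-1 (adjusted p = 0.0564) and TNFAIP8 (adjusted p = 0.0581).

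Further genes of the pathway were taken from 3 lists. Of 41 tested genes that act upstream of the subunits (receptors, adaptors and IkB kinase components), 2 rose in knockdown against control and the other 39 did not pass, with a median of 0.07 log2; over all genes 3.31% rose and 3.48% fell, so these counts are near the background. DESeq2 called 6 as higher. In this comparison DESeq2 called 2441 of all 17115 genes, both directions together. The 2 called by edgeR were TNFRSF12A, the receptor of TWEAK (0.59 ± 0.09, adjusted p = 0.0177), and IRAK1, a kinase of IL-1 receptor signalling (0.35 ± 0.07, adjusted p = 0.0332). Of 43 further target genes tested, 2 rose and 2 fell, again near those shares, with a median of -0.17 log2, and DESeq2 called 4 as higher and 8 as lower. CFLAR, an inhibitor of caspase 8, changed by 0.36 ± 0.08 (adjusted p = 0.0406) and PLAUR, the urokinase receptor, by 0.46 ± 0.11 (adjusted p = 0.0496). TNFSF15, a TNF family ligand, changed by -0.80 ± 0.10 (adjusted p = 0.0109) and SLC2A6, a sugar transporter family member, by -0.51 ± 0.07 (adjusted p = 0.0134). In shCBX8-2 alone, 3 of the 43 rose and 7 fell, where 6.03% of all genes rose and 6.64% fell, with a median of -0.23 log2. In shCBX8-1 alone, 2 rose and 3 fell, where 1.34% and 1.13% of all genes did, with a median of -0.07 log2. Of 15 tested receptors and antagonists of the ligands, 2 fell in knockdown against control, where 3.48% of all genes fell. They were LIFR, a receptor chain for LIF (-1.10 ± 0.23, adjusted p = 0.0396), and SOCS3, a feedback inhibitor of cytokine receptors (-0.51 ± 0.10, adjusted p = 0.0289). SLC2A6 and SOCS3 changed by -1.27 ± 0.08 and -1.14 ± 0.11 in shCBX8-2, against 0.24 ± 0.08 and 0.13 ± 0.11 in shCBX8-1, which did not pass, and each differed between the groups (adjusted p = 0.000899 and 0.00214). The receptor genes CXCR1, ACKR1 and CCR2 had 0 counts in all 6 libraries.

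Between the knockdown groups, 1 of 41 upstream genes was higher and 4 were lower in shCBX8-2, near the 4.05% and 5.77% of all genes. Of 43 further targets, 4 were higher and 9 lower. MAP3K14, the kinase of the non-canonical pathway, had 71.6 and 64.3 CPM in the controls, 110.0 and 97.4 in shCBX8-1, then 70.4 and 67.4 in shCBX8-2. It rose in shCBX8-1 by 0.61 ± 0.10 (adjusted p = 0.0336) and was lower in shCBX8-2 than in shCBX8-1 by a log2 difference of -0.59 ± 0.10 (adjusted p = 0.0161), while shCBX8-2 overlapped with control. TRAF3, which keeps MAP3K14 low in resting cells, had 61.9 and 60.0 CPM in the controls, 82.1 and 75.9 in shCBX8-1, then 60.2 and 53.2 in shCBX8-2, with a difference of -0.48 ± 0.10 between the groups (adjusted p = 0.0279). The call of MAP3K14 in shCBX8-1 was lost without control replicate 2 or either shCBX8-1 library, where edgeR called 0 genes of the whole table in that comparison. Whether that call held without control replicate 1 is not given here. MAP3K14 and TRAF3 were named after their values had been seen.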

How the data were processed

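A set of 6 libraries of A549 cells was sequenced. The authors deposited expected counts, estimated reads per RefSeq transcript, whole numbers not scaled to a common total. Per the submitters' processing notes, HISAT2 2.2.1, StringTie 2.2.1, DESeq2 1.34.0 and build hg38 were used; which annotation was used and how the counts arose is not given in the sources used here. Of 84787 transcripts, 83963 matched a gene in RefSeq (GRCh38.p14) and 357 in GENCODE v29 tables, and 467 had no match and stayed as entries of their own. Repeated accessions were summed with the first. Transcript estimates within NFKB2, SOD2, TNFAIP3 and IL32 differed widely between libraries of 1 group, so gene sums were used. Depth was 64197784 to 67169537 estimated counts per library, and low counts limit the precision of TNF, IL6 and CCL20.

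Tests used edgeR 4.0.16 in R 4.3.3 (filterByExpr with minimum count 10 and minimum total 15, TMM, quasi-likelihood F test). A single model of the 6 libraries had 3 group means, 3 residual degrees of freedom and a biological coefficient of variation of 19.2%. P-values were two-sided and adjusted by Benjamini and Hochberg over 17115 genes, with a threshold of 0.05. The SE was derived from the F statistic. The 4 comparisons were the mean of both knockdown groups against control, each group against control, and shCBX8-2 against shCBX8-1. Scripts were tested on simulated data. The genes and lists were chosen with earlier results of these data known. Values per library are given for genes that passed in at least 1 comparison or had a mean of at least 100 CPM; of each pathway list, up to 6 genes with the smallest p among those that passed in knockdown against control are named, and up to 6 promoters. RefSeq promoters were matched by symbol for 33 of 42 genes; CCL2, IL18, LIF, CSF1, CSF3, RELB, NFKBIE, RIPK2 and IER3 were not. Alternatives included DESeq2 1.42.0, other scaling, filters and libraries.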

Additional observations from a re-analysis of the deposited data

Results flagged for a closer look

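The change against control differed between the knockdown groups in 10 genes, by the edgeR test of shCBX8-2 against shCBX8-1, in which the shared control levels cancel. On the log2 scale the difference was -1.63 for CCL2, -1.53 for CSF1, -1.47 for NFKB2, -1.15 for RELB, -0.97 for TNFAIP8, -0.90 for IL32, -0.79 for IRAK2, -0.69 for MAP3K8, -0.64 for NFKB1 and 0.36 for LIF. For CSF1 each group also passed against control, with opposite signs. Its rise in shCBX8-1 did not pass in edgeR with the replicate number as a block (adjusted p = 0.0693). CBX8 itself was higher in shCBX8-2 than in shCBX8-1, by 1.02 ± 0.15 (adjusted p = 0.0115).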

How the results depend on the processing

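The counts of genes called were 13 for knockdown against control, 5 for shCBX8-1, 17 for shCBX8-2 and 10 between the groups. When each library was left out in turn they ranged from 0 to 18, from 0 to 17, from 2 to 25 and from 3 to 21, in that order, and the calls fell when a control or shCBX8-1 library was left out and not when a shCBX8-2 library was. A group then had 1 library and was taken to vary like the others. The calls over all genes fell and rose in the same fits. In fits of only the libraries compared, 17 were called for shCBX8-1, 9 for shCBX8-2 and 4 between the groups. These fits called 2426 of 16791 genes for shCBX8-1 and 995 of 16667 for shCBX8-2. At an adjusted p under 0.01 the counts were 2, 0, 5 and 3. For shCBX8-1, 19 of 40 had an unadjusted p under 0.05 in edgeR, where 1467 of all 17115 genes did so as higher and 1484 as lower. With the 4 knockdown libraries as 1 group, 1 was called. For shCBX8-1, DESeq2 called 15, where it called 1459 of all 17115 genes, and the fit without repeated accessions called 3. The causes were not tested. With the replicate number as a block (replicate block), shCBX8-1 had 2 calls, both higher, knockdown against control 9, shCBX8-2 19 and the comparison of groups 8. In shCBX8-1, SDC4 was 1 of these 2 (edgeR adjusted p = 0.0338) and CSF1 was not (adjusted p = 0.0693). CXCL1, EFNA1 and IER3 no longer passed there either (adjusted p = 0.062, 0.051 and 0.0693). Over all genes, 173 were called in shCBX8-1 with this block. Deviations of same-numbered libraries from their group means correlated at 0.0089, -0.0174 and 0.0462 over 17115 genes, so the numbers were not taken as pairs. DESeq2 size factors, no filter on low counts, and CXCL1, CXCL2 and CXCL3 summed moved no count by over 1.5 times. Over all genes, knockdown against control gave 1162 calls, and 1, 1, 29 and 16 without control replicates 1 and 2 and shCBX8-1 replicates 1 and 2.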

Other observations

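Several other target genes of NF-kB, chosen here after their values were seen, moved in opposite directions in the knockdown groups. C3, the central complement component, had 94.9 and 115 CPM in the controls, 51.2 and 53.7 in shCBX8-1, then 262 and 235 in shCBX8-2. The 3 groups did not overlap, and the log2 fold change was -1.0 ± 0.11 in shCBX8-1 (adjusted p = 0.0131) and 1.25 ± 0.11 in shCBX8-2 (adjusted p = 0.00246). LCN2, which encodes the iron-siderophore binding protein lipocalin 2, had 89.3 and 104 CPM in the controls, 51.2 and 59.8 in shCBX8-1, then 299 and 265 in shCBX8-2. It changed by -0.80 ± 0.12 (adjusted p = 0.0272) and 1.55 ± 0.12 (adjusted p = 0.00177). PSMB9, a subunit of the immunoproteasome, went the other way, with 0.61 ± 0.11 in shCBX8-1 (adjusted p = 0.0437) and -0.97 ± 0.11 in shCBX8-2 (adjusted p = 0.00435). The calls of all 3 in shCBX8-1 were lost without control replicate 2 or either shCBX8-1 library, where edgeR called 0 genes of the whole table in shCBX8-1 against control. Whether these calls held without control replicate 1 is not given here. All 3 genes also passed between the knockdown groups, with differences of 2.24 ± 0.12 for C3, 2.35 ± 0.12 for LCN2 and -1.58 ± 0.11 for PSMB9. C3 and LCN2 were thus higher in shCBX8-2, where CCL2, CSF1, NFKB2 and RELB were lower than in shCBX8-1.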
